A study of Mus musculus with 36 samples.

Results

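The 8 genes described here are Acod1, Marco, Mmp8, Fpr1, Fpr2, Saa3, Lcn2 and S100a8, out of 30205 mouse genes measured. They were chosen because they were much higher in macrophage-lineage cultures from Mir324-null mice than in wild-type ones, or because they are inflammatory genes related to those. The choice had no numerical threshold. Since the null against wild-type values in the macrophage-lineage cultures chose the genes, those values are given as a description with no test. Tests are given for what the choice did not use, namely the genotype comparison in osteoblast cultures and the comparison of cultures with and without RANK-L.

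The study sequenced RNA from 36 cultures of cells of 20-week-old mice, 6 cultures in each of 6 groups. Control mice were wild-type (WT), and the null mice lacked Mir324, a microRNA gene. BMM denotes bone marrow macrophages, which were grown from flushed marrow with M-CSF and then kept for 5 days in M-CSF at 30 ng/mL. The cultures labelled osteoclasts (OC) were the same kind of macrophage kept for 5 days with M-CSF at 30 ng/mL and RANK-L at 50 ng/mL, the cytokine that drives osteoclast formation. The cultures labelled osteoblasts (OB) grew out of bone chips and received osteogenic medium for 18 days. All null groups lacked Mir324 in the mouse from which the cells came. The labels give no strain, sex, cell-specific driver or mouse of origin, so the p-values measure the spread between these cultures, which may be technical.

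All 8 genes belong to the innate inflammatory response. Acod1 encodes the mitochondrial enzyme that makes itaconate from cis-aconitate in activated macrophages. Marco is a scavenger receptor for bacteria and particles, and Fpr1 and Fpr2 are G-protein-coupled receptors for formylated bacterial peptides and related ligands that direct phagocyte migration. Saa3 is a serum amyloid A made outside the liver, Lcn2 is a protein that binds bacterial siderophores, and S100a8 is a calcium-binding protein that normally pairs with S100a9 as calprotectin. Mmp8 is a collagenase known from neutrophil granules. Several of them are induced in macrophages by Toll-like receptor ligands and are also abundant in neutrophils, which is why markers of other blood cells are given with the results.

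The genes lie on 7 chromosomes (GRCm38, GENCODE M21). Acod1 spans chr14:103046977-103056573 on the plus strand. Marco spans chr1:120474538-120505024 on the minus strand, and Mmp8 spans chr9:7558456-7568485 on the plus strand. Saa3 spans chr7:46711998-46715700 and Lcn2 spans chr2:32384633-32388252, both on the minus strand, and S100a8 spans chr3:90668978-90670035 on the plus strand. Fpr1 at chr17:17876471-17883940 and Fpr2 at chr17:17887824-17893952 are neighbours read away from each other, with 3883 bases between their starts. All 8 are annotated as protein-coding.

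Library size ranged from 14118972 to 26347581 estimated counts. The labelled cell types were checked against defining markers. The summed level of 12 macrophage markers was 54559 to 67125 CPM (TMM-scaled counts relative to library size) in WT BMM and 64217 to 71852 CPM in null BMM. The summed level of 10 osteoclast markers was 29653 to 31879 CPM in WT OC and 421 to 772 CPM in null OC, so the null cultures labelled OC held the osteoclast transcripts of their label at a far lower level. Calcr, the calcitonin receptor, was at 0 in all of the null OC libraries. Macrophage markers summed to 18911 to 21219 CPM in WT OC and 61455 to 75614 CPM in null OC. The OB cultures held osteoblast transcripts, at 66015 to 86779 CPM in WT and 103564 to 124388 CPM in null for 10 markers, together with macrophage transcripts.

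The deleted microRNA and the sequences upstream of the genes are shown because they are the sequence context of the comparison. Mir324 gives 2 mature microRNAs (RefSeq, GRCm38.p6, plus strand). Their seeds (bases 2 to 8, in capitals) were matched as sites of 7 bases against each gene's longest 3′ UTR in GENCODE M21. The 5p arm lies at chr11:70012060-70012082 and the 3p arm at chr11:70012095-70012114.
miR-324-5p: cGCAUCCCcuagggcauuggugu
miR-324-3p: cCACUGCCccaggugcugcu
The site of the 5p arm, GGGATGC, was found in the 3′ UTR of 7.66% of 20079 genes, and among the 8 genes only in that of Lcn2. It starts at base 24 of the 232 bases of that UTR, on the minus strand at chr2:32384827-32384849 (the site in capitals, with 8 bases on either side).
Lcn2 site: ggctgactGGGATGCgcagagac
The site of the 3p arm, GGCAGTG, was found in 13.5% of genes and in none of the 8. The searched 3′ UTRs of the 8 genes ranged from 68 bases in S100a8 to 1065 bases in Acod1. A match describes letters in the sequence and is not evidence of binding.

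All 8 genes had an entry among 32851 RefSeq promoters of 300 bases, which run from 250 bases before the start to 50 after it. These stretches were searched on both strands for 7 motifs. The C/EBP motif TTNNGNAA was found in 7 of the 8 (all but Acod1) and in 40.7% of all promoters. The PU.1 motif GAGGAA was found in 6 of the 8 and in 28.3% of all, and the letters TATAAA in 5 of the 8 and in 13.6% of all. The interferon-stimulated response element (ISRE) was found in 1 of the 8, Saa3, and in 3.44% of all. The NF-kB motif, the AP-1 motif TGANTCA and the antioxidant-response motif TGACNNNGC were found in none of the 8 windows and in 8.46%, 7.81% and 12.4% of all promoters. C/EBP matches can overlap each other, as in Marco, or the interferon-response match, as in Saa3. Upstream sequences are shown for the scavenger receptor, the collagenase, both formyl peptide receptors and Saa3, with C/EBP and interferon-response matches in capitals, as up to 150 bases before the RefSeq start, cut short where annotated transcripts begin (RefSeq, GRCm38.p6, each written on the strand of its gene).
Marco chr1:120505025-120505174, minus strand: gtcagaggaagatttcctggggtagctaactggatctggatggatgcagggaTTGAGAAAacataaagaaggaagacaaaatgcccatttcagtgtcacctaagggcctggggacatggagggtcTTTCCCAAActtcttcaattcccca
Mmp8 chr9:7558279-7558428, plus strand: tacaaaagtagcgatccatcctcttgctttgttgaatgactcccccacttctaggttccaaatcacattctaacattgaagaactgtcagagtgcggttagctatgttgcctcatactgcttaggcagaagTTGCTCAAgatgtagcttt
Fpr1 chr17:17883941-17884089, minus strand: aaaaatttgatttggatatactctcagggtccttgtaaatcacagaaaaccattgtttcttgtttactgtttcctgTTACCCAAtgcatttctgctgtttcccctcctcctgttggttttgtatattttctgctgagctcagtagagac
Fpr2 chr17:17887674-17887823, plus strand: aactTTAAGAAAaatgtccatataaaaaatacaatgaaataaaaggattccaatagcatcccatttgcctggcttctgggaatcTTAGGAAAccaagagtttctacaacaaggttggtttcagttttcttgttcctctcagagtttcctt
Saa3 chr7:46715701-46715826, minus strand: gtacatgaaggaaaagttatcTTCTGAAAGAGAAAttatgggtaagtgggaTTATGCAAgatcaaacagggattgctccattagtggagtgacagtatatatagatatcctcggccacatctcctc

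In BMM and in OC every null library was above every WT library for all 8 genes. In the same comparisons 52.3% of 11925 genes tested in BMM and 65.6% of 12121 genes tested in OC passed an adjusted p of 0.05 (quasi-likelihood test of edgeR, adjusted by Benjamini-Hochberg over every gene tested). In BMM 27% were higher and 25.4% lower in null, and in OC 32.4% were higher and 33.1% lower. These shares count genes past a threshold, and the share of all genes without overlap was not computed. Because the genes were picked on this difference, the gap describes the choice and tests nothing. The plot of each gene by library shows the 4 macrophage-lineage groups falling into 2 bands, with the OB groups near the lower band.

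**Figure D1:**
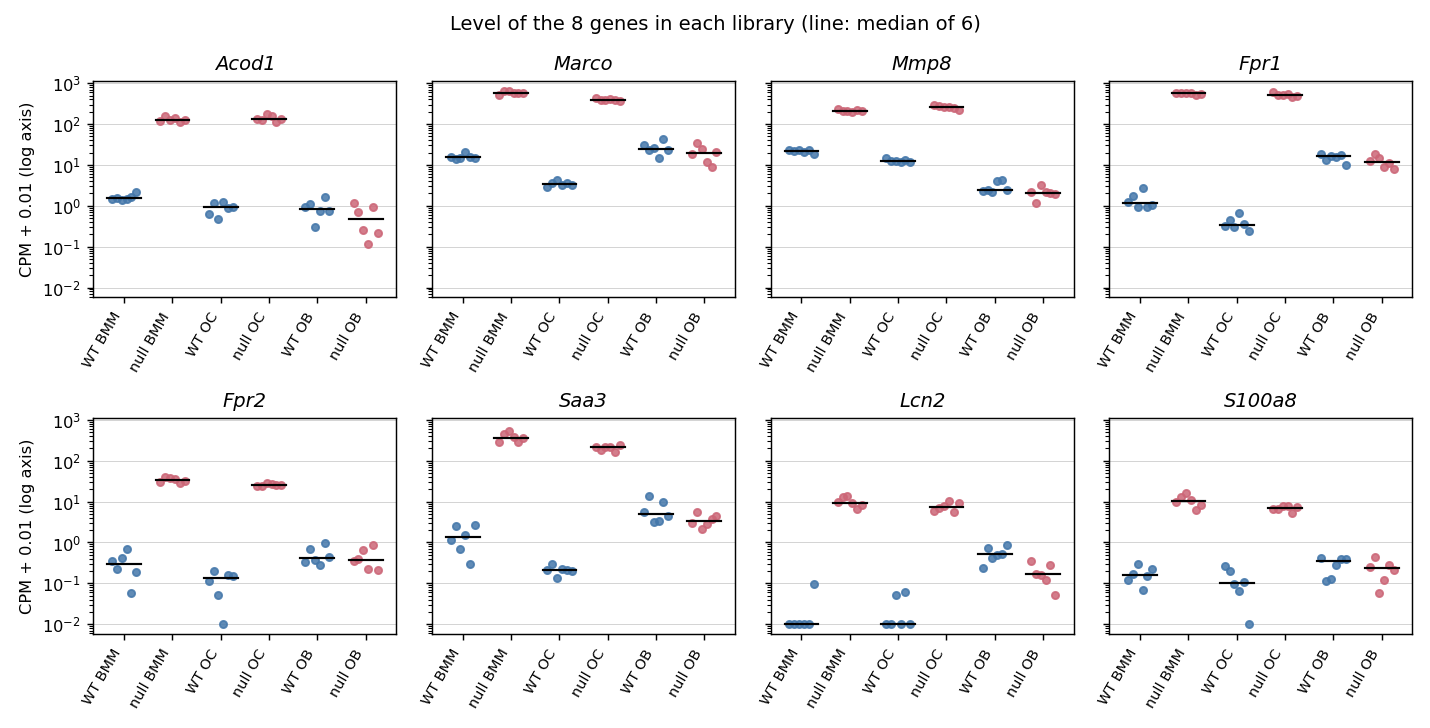
Level of each gene in every library, as CPM plus 0.01 on a log axis, with 6 points for each of the 6 groups and a line at the median. Null BMM and null OC libraries lie above all WT BMM and WT OC libraries in all 8 panels, and the WT and null OB libraries overlap in all 8.

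Among the receptors, Fpr1 had the largest ratio. It ranged from 0.905 to 2.64 CPM in WT BMM (median 1.16) and from 519 to 585 CPM in null BMM (median 566). In OC it ranged from 0.236 to 0.652 CPM in WT (median 0.326) and from 471 to 593 CPM in null (median 514). The log2 difference was 8.65 (SE 0.19) in BMM and 10.38 (SE 0.12) in OC, where it was the largest positive difference of all 12121 genes tested. That difference in OC rests on 5 to 12 counts in each WT library, 46 in all. Null values kept within a narrow band, with a coefficient of variation of 4.08% in null BMM against 47.6% in WT BMM, where single libraries held 16 to 46 counts.

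Fpr2, the neighbour of Fpr1, was far lower but showed the same gap. It ranged from 0.0476 to 0.69 CPM in WT BMM (median 0.28) and from 28.4 to 40.3 CPM in null BMM (median 33.3). In OC the WT libraries held 0 to 4 counts each, at most 0.191 CPM, and the null libraries ranged from 24 to 28.3 CPM (median 25.4). Its log2 difference was 6.81 (SE 0.26) in BMM and 7.80 (SE 0.22) in OC. Of the 31-base stretches in its transcripts, 14.2% also occur in Fpr1 or Fpr3, against 1.55% for Fpr1 itself, so the split of counts between these genes is less certain for Fpr2.

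Marco, the scavenger receptor, was already measurable in WT BMM, at 14.1 to 21.2 CPM (median 15.2), and reached 529 to 650 CPM in null BMM (median 586). In OC it ranged from 2.84 to 4.16 CPM in WT (median 3.47) and from 373 to 433 CPM in null (median 393). On the log2 scale the difference was 5.22 (SE 0.11) in BMM and 6.78 (SE 0.08) in OC.

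Of the enzymes, Acod1 ranged from 1.37 to 2.11 CPM in WT BMM (median 1.5) and from 112 to 158 CPM in null BMM (median 124). In OC it ranged from 0.472 to 1.2 CPM in WT (median 0.919) and from 113 to 175 CPM in null (median 131). Acod1 differed on the log2 scale by 6.34 (SE 0.12) in BMM and 7.26 (SE 0.17) in OC. The single transcript annotated for Acod1, of 2623 bases, carried all of its counts.

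Mmp8, the collagenase, had the smallest difference of the 8 in both cultures. It ranged from 18.9 to 23.5 CPM in WT BMM (median 22.4) and from 201 to 237 CPM in null BMM (median 210). In OC it ranged from 11.9 to 15.1 CPM in WT (median 12.8) and from 222 to 301 CPM in null (median 263). The log2 difference was 3.30 (SE 0.07) in BMM and 4.29 (SE 0.08) in OC, and Mmp8 ranked 146 of 11925 and 84 of 12121 genes by this difference.

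The secreted proteins differed widely in level. Saa3, the serum amyloid, ranged from 0.286 to 2.6 CPM in WT BMM (median 1.32) and from 287 to 525 CPM in null BMM (median 368). In OC it ranged from 0.129 to 0.286 CPM in WT (median 0.201), 3 to 6 counts in each library, and from 161 to 239 CPM in null (median 220). Saa3 differed on the log2 scale by 8.04 (SE 0.36) in BMM and 9.91 (SE 0.16) in OC. Of the 31-base stretches of Saa3, 5.71% also occur in Saa1 or Saa2.

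Lcn2 was nearly absent from WT macrophage-lineage cultures. The 6 WT BMM libraries held 2 counts of it in all, both in 1 library, and the 6 WT OC libraries also held 2. The null libraries held 1111 counts in BMM, at 6.51 to 13.7 CPM (median 9.51), and 834 counts in OC, at 5.47 to 10.1 CPM (median 7.47). The ratio of null to WT was 576 in BMM (95% counting interval 159 to 4765) and 476 in OC (131 to 3935), an interval that covers counting error only.

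S100a8 ranged from 0.0575 to 0.285 CPM in WT BMM (median 0.153) and from 6.18 to 16.7 CPM in null BMM (median 10.2). In OC it was at 0 to 0.254 CPM in WT (median 0.0927) and at 5.34 to 7.94 CPM in null (median 7.05). The log2 difference was 5.98 (SE 0.32) in BMM and 5.81 (SE 0.34) in OC. S100a9, the partner of S100a8 in calprotectin, did not accompany it: 35 of the 36 libraries held 0 counts of S100a9 and 1 null OC library held 2. None of the 31-base stretches of either gene occurs in another gene of the annotation.

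Levels can be compared between genes only per length, here as the deposited TPM (abundance per transcript length). In null BMM the order of the mean TPM was Saa3 at 1460 ± 279 (SD, n = 6), Fpr1 at 637 ± 44.9, Marco at 441 ± 21.1, Mmp8 at 121 ± 13.7, S100a8 at 70.2 ± 20.9, Acod1 at 68.1 ± 6.08, Fpr2 at 54.1 ± 5.35 and Lcn2 at 17.8 ± 4.21. The ranges of S100a8 and Acod1 overlapped in null BMM, at 42.5 to 104 and 61.3 to 77.4 TPM. In null OC the first 4 stood in the same order, with Saa3 at 821 ± 87.4, Fpr1 at 612 ± 45, Marco at 312 ± 17.1 and Mmp8 at 154 ± 16.2 TPM. Acod1 followed at 75.4 ± 10.9 TPM, then S100a8 at 47.3 ± 5.39 and Fpr2 at 41.7 ± 2.03, whose ranges overlapped, and Lcn2 at 14 ± 3.02. In WT BMM the highest of the 8 were Mmp8 at 13.6 ± 0.995 and Marco at 13 ± 2.19 TPM, whose ranges also overlapped.

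The order of the 6 groups put a null macrophage-lineage group first for every gene. Null BMM was highest for Marco, Fpr1, Fpr2, Saa3, Lcn2 and S100a8, and null OC for Acod1 and Mmp8. The null BMM and null OC ranges overlapped for Acod1, Mmp8, Fpr1, Lcn2 and S100a8 and did not for Marco, Fpr2 and Saa3. The share of all genes without overlap between these cultures was not computed. Below the null groups the order differed by gene. The OB groups came next for Marco, Fpr1, Fpr2, Saa3, Lcn2 and S100a8, and WT BMM came next for Acod1 and Mmp8. This order is by group means, and many of the ranges overlapped. Null OB overlapped with WT BMM for Marco, Fpr2, Saa3 and S100a8 and with WT OC for Lcn2. WT BMM overlapped with WT OB for Acod1. For Fpr1 the OB groups were clearly above the WT macrophage-lineage groups, at 8.04 to 18.6 CPM over the 12 OB libraries. For Mmp8 the OB groups were the lowest of all, at 1.19 to 4.18 CPM.

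Several of the 8 genes had their highest or lowest value in the same null library. Some sharing must occur, because there are more genes than libraries in a group. The share of all genes with their extreme value in these libraries was not computed, so the sharing is not read as particular to the 8. Null BMM library 3 was the highest of its group for Marco, Saa3, Lcn2 and S100a8, and null BMM library 5 was the lowest for Acod1, Fpr1, Fpr2, Lcn2 and S100a8. For S100a8 these libraries lay 0.70 above and 0.72 below the group mean on the log2 scale. Null OC library 5 was the lowest for Acod1, Fpr1, Saa3, Lcn2 and S100a8. Marco, Mmp8 and Fpr1 varied least, with all null BMM libraries within 0.16 of their group mean. The heat map of these deviations shows Saa3, Lcn2 and S100a8 as the rows with the widest spread in null BMM.

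**Figure D2:**
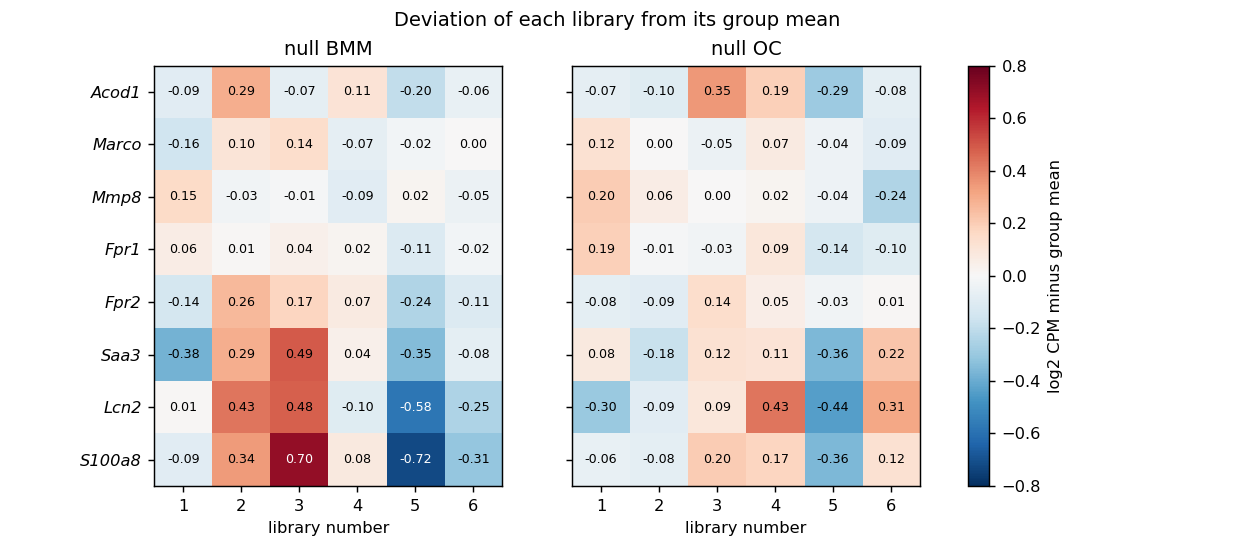
Log2 CPM of each gene in each of the 6 null BMM and 6 null OC libraries minus the mean of its group, with the value written in each cell. In null BMM, S100a8 ranges from -0.72 in library 5 to 0.70 in library 3, while Fpr1 stays between -0.11 and 0.06.

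Most of the 8 had 1 transcript that carried their counts. Marco-201 held 99.9% of the Marco counts in null BMM. Lcn2-201, the transcript that contains the miR-324-5p site, held 87.8% ± 2.35 (SD, n = 6) of the Lcn2 counts in null BMM and 86.2% ± 6.29 in null OC, and Lcn2-206 held 11.3% in null BMM. Fpr2 counts were split between Fpr2-201, at 53.3% ± 7.75 in null BMM and 58.3% ± 4.78 in null OC, and Fpr2-202, at 46.7% and 41.7%. In the WT macrophage-lineage groups Fpr2 and Lcn2 had too few counts to compare shares.

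Markers of other blood cells were measured beside these values. The 11 genes that define neutrophils and their precursors (Ly6g, Mpo, Elane, Prtn3, Ctsg, Ngp, Camp, Ltf, Retnlg, Cd177 and S100a9) summed to 0.0569 to 0.287 CPM in WT BMM and 0.657 to 1.52 CPM in null BMM. In OC they summed to 0.0429 to 0.189 CPM in WT and 0.324 to 2.32 CPM in null. The null ranges were above the WT ranges in both cultures, and the genes with most of the difference were Cd177, at 0.622 CPM in null BMM and 0.908 in null OC, and Camp, at 0.266 and 0.21 CPM. The 8 genes summed to 1765 to 2153 CPM in null BMM and 1420 to 1712 CPM in null OC. Elane, Ctsg, Ltf, Retnlg and S100a9 were at 0 in all null BMM libraries. Ly6g, Elane, Prtn3, Ngp, Ltf and Retnlg were at 0 in all null OC libraries.

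**Figure D3:**
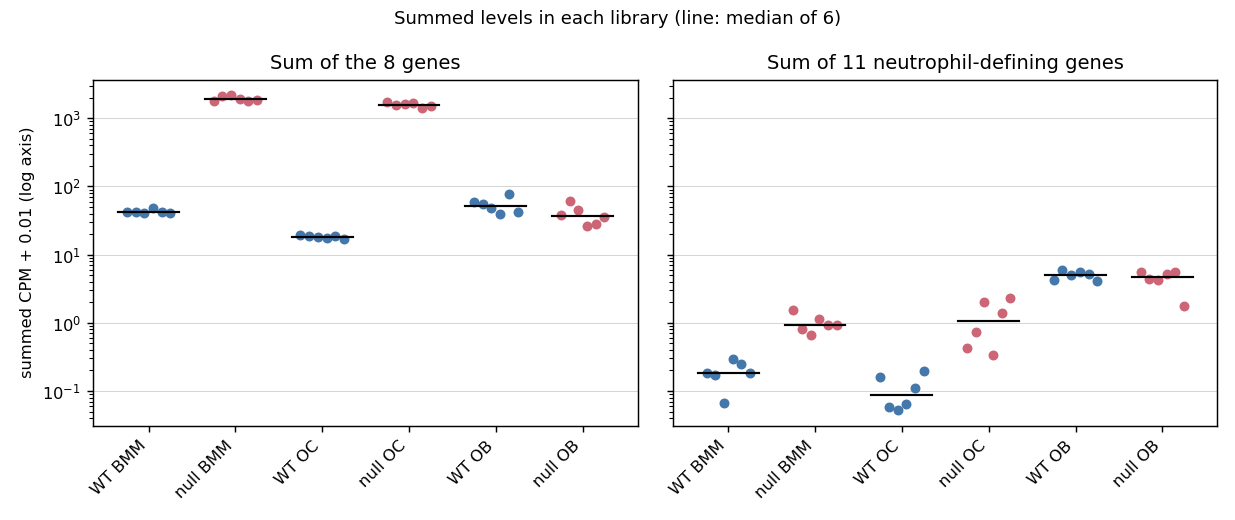
Summed CPM of the 8 genes (left) and of 11 neutrophil-defining genes (right) in each library, plus 0.01 on a shared log axis, with a line at the median of 6. In null BMM the 8 genes sum to at least 1765 CPM and the neutrophil-defining genes to at most 1.52 CPM.

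Of the whole neutrophil list of 18 genes, 6 were tested in BMM, where 4 rose and 0 fell, and 7 in OC, where 4 rose and 2 fell. Those 18 include genes that macrophages and osteoclasts also express. Csf3r, the receptor for G-CSF, rose from 29.8 to 48 CPM in WT BMM to 77 to 102 CPM in null BMM (log2 fold change 1.07, SE 0.11, adjusted p 8.95e-07). Csf3r in OC rose from 2.05 to 2.64 CPM in WT to 43.4 to 88.4 CPM in null (4.87, SE 0.20, adjusted p 3.28e-12). Mcemp1, a membrane protein of neutrophils and mast cells, rose from a mean of 0.098 to 2.77 CPM in BMM (4.77, SE 0.46, adjusted p 3.56e-07) and from 0.242 to 2.21 CPM in OC (3.10, SE 0.34, adjusted p 4.25e-07). Cxcr2, a chemokine receptor on the list, did not pass in BMM (-0.12, SE 0.20, adjusted p 0.64) and fell in OC (-0.63, SE 0.18, adjusted p 0.00479). Padi4 did not pass in BMM (-0.26, SE 0.18, adjusted p 0.255) and rose in OC (2.06, SE 0.18, adjusted p 2.1e-08). Mmp9 rose in BMM and fell in OC, with values given below. The part of neutrophils and their precursors in the levels of the 8 genes was not tested. Monocyte markers were mixed, with 4 of 7 tested rising and 2 falling in BMM and a median of 0.73, against a median of 0.02 for all genes. In OC 2 of 7 rose and 2 fell, with a median of -0.38, against -0.03. Ly6c2 was at or under 0.237 CPM in every macrophage-lineage group mean, and Chil3 and Ear2 were at or near 0. Dendritic, lymphoid, erythroid, mast and basophil markers summed to at most 2.99 CPM for any list in any BMM or OC library. Collagen transcripts also moved with genotype: Col1a1 averaged 15.4 CPM in WT BMM against 63.4 CPM in null BMM (log2 fold change 2.05, SE 0.35, adjusted p 0.000328). Its OC means were 7.94 CPM for WT and 84.9 CPM for null (3.37, SE 0.31, adjusted p 4.13e-07). Of 10 osteoblast markers, 5 were tested in each culture, of which 4 rose and 1 fell in BMM and 4 rose and 0 fell in OC. Postn, a matrix protein of bone and connective tissue, was at 0 in all WT OC libraries and at 2.6 to 9.51 CPM in null OC. The part of matrix-producing cells was likewise not tested.

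Marco, Fpr1, Acod1 and Mmp8 were lower in WT cultures kept with RANK-L. All 8 were tested, 6 fell, 0 rose and 2 did not pass (edgeR quasi-likelihood test on 24 libraries, adjusted over all genes tested). Of all 12661 genes tested, 60.5% passed, 30.4% rose and 30.1% fell. Fpr2, Saa3, Lcn2 and S100a8 entered this fit only through their counts in the null libraries. Their values are therefore a description, and the count of 6 is not read as a result. In an edgeR fit of the 12 WT libraries alone, added after the data were seen, these 4 fell under the filter on low counts. The 4 genes that were tested all passed and were lower. In that fit 8555 of all 12049 genes passed, 4274 of them lower. The libraries are the ones from which the genes were chosen, in another contrast, and BMM and OC cultures were compared within 1 genotype.

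Marco fell from a mean of 16 CPM in WT BMM to 3.47 CPM in WT OC, with no overlap (log2 fold change -2.15, SE 0.10, adjusted p 1.02e-16). Fpr1 fell from 1.42 to 0.378 CPM with no overlap (-1.84, SE 0.26, adjusted p 6.21e-07). Fpr2 averaged 0.312 and 0.104 CPM with overlapping ranges, on 34 counts in all WT BMM libraries and 13 in all WT OC libraries. Its log2 fold change was -1.41 (SE 0.47), and -1.02 without WT BMM library 4, given as a description with no test.

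Saa3 averaged 1.45 and 0.204 CPM, on 6 to 59 counts in single WT BMM libraries and 3 to 6 in WT OC. For Saa3, 5 of 6 WT OC libraries lay below all WT BMM libraries (-2.77, SE 0.51), again a description with no test. Acod1 fell from 1.59 to 0.877 CPM (-0.84, SE 0.21, adjusted p 0.00111), and Mmp8 fell from 21.9 to 12.9 CPM (-0.72, SE 0.07, adjusted p 1.71e-09), both with no overlap. S100a8 averaged 0.164 and 0.114 CPM, on 19 and 14 counts in all. Lcn2 had 2 counts in each group, and no difference was detectable at this depth. Macrophage markers fell in the same comparison, 12 of 12, with a median of -2.24 and a summed level of 54559 to 67125 CPM in WT BMM and 18911 to 21219 CPM in WT OC. In bulk RNA, fewer cells of a type and less RNA per cell cannot be told apart.

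In null cultures 3 of the 8 genes passed in the same comparison. All 8 were tested, 2 fell, 1 rose and 5 did not pass, where 12.9% of all 12661 genes passed, 6.78% higher and 6.07% lower. That background depends on the libraries fitted: 1628 genes passed in the fit of 24 libraries and 236 of 11944 in an edgeR fit of the 12 null libraries alone, where the same 3 of the 8 genes passed. It ranged from 810 genes without null BMM library 3 to 2143 without null BMM library 1. Marco ranged from 529 to 650 CPM in null BMM and from 373 to 433 CPM in null OC (log2 fold change -0.58, SE 0.08, adjusted p 0.000184). Saa3 ranged from 287 to 525 CPM in null BMM and from 161 to 239 CPM in null OC (-0.89, SE 0.18, adjusted p 0.0048). Neither gene overlapped between the cultures. Mmp8 rose, from 201 to 237 CPM in null BMM to 222 to 301 CPM in null OC, with 5 of 6 null OC libraries above all null BMM libraries (0.29, SE 0.07, adjusted p 0.00724).

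Acod1 (log2 fold change 0.09, SE 0.11, adjusted p 0.605) and Fpr1 (-0.11, SE 0.10, adjusted p 0.507) did not pass. Fpr2 was lower in all 6 null OC libraries than in any null BMM library, at -0.41 (SE 0.15), but did not pass (adjusted p 0.0671). S100a8 was at -0.64 (SE 0.22, adjusted p 0.0534) and Lcn2 at -0.41 (SE 0.21, adjusted p 0.2). DESeq2 called Fpr2 and S100a8 as well, 5 of 8, as did the edgeR fit without null BMM library 5. Over 34 alternatives Fpr2 passed in 5 and S100a8 in 6. Mmp8 did not pass when all 36 libraries were fitted together (0.28, adjusted p 0.0565). Mmp8 thus fell with RANK-L in WT and rose in null. The difference between the 2 responses was not tested, because it equals the difference between the genotype gaps on which the genes were chosen. Macrophage markers in the same null comparison rose in 1, fell in 2 and did not pass in 9 of 12.

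**Figure D4:**
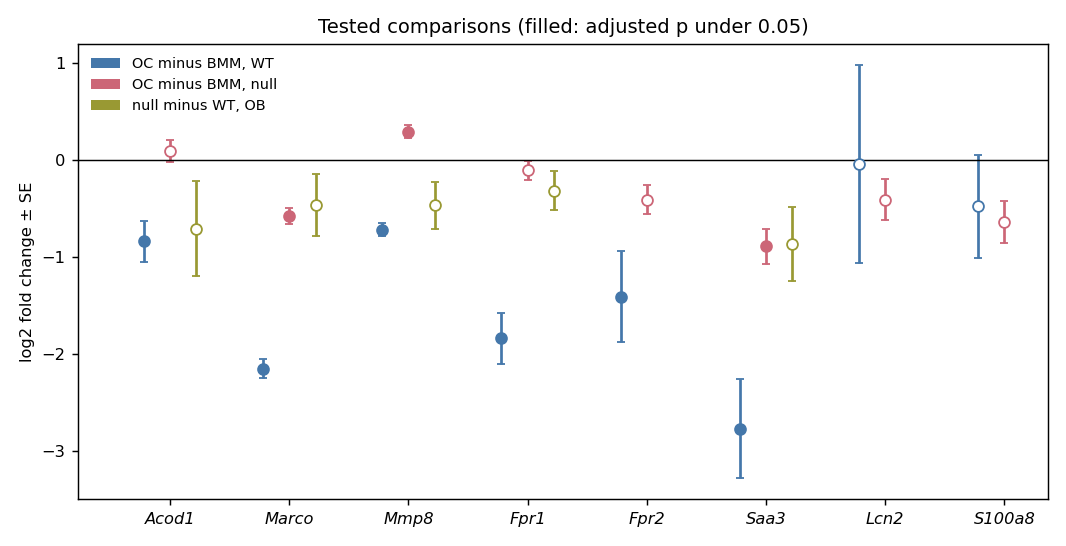
Log2 fold change with its SE for each gene in 3 tested comparisons: OC minus BMM in WT, OC minus BMM in null, and null minus WT in OB, where Fpr2, Lcn2 and S100a8 were not tested. Filled points passed an adjusted p of 0.05: 6 in WT, 3 in null and 0 in OB. In WT, Fpr2, Saa3, Lcn2 and S100a8 entered the fit only through the null libraries. Their points, filled for Fpr2 and Saa3, are therefore a description with no test. The point of Lcn2 rests on 2 counts in each group.

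The genotype comparison in OB cultures is the one the choice did not use. Of the 8 genes, 5 had enough counts to be tested and 0 passed, against 32.5% of 13607 genes tested (edgeR quasi-likelihood test, adjusted over all genes tested). At an unadjusted p under 0.05 there was 1, Saa3. DESeq2 called 1, also Saa3, and limma-voom called 0. All 5 estimates were lower in null, with a median of -0.47, against a median of 0.00 for all genes.

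Saa3 ranged from 3.24 to 13.9 CPM in WT OB (median 5.02) and from 2.17 to 5.71 CPM in null OB (median 3.41), with overlap (log2 fold change -0.87, SE 0.38, adjusted p 0.0969). Over the alternatives its adjusted p ranged from 0.0194 to 0.404. Fpr1 ranged from 9.93 to 18.3 CPM in WT OB (median 16.1) and from 8.04 to 18.6 CPM in null OB (median 11.9), at -0.32 (SE 0.20, adjusted p 0.252). Marco ranged from 14.7 to 43.4 CPM in WT OB (median 24.6) and from 9.01 to 33.5 CPM in null OB (median 19.5), at -0.47 (SE 0.32, adjusted p 0.299). Both genes overlapped between the genotypes over most of their range.

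Mmp8 was at 2.12 to 4.18 CPM in WT OB and 1.19 to 3.2 CPM in null OB (-0.47, SE 0.24, adjusted p 0.147). Acod1 was at 0.295 to 1.64 and 0.108 to 1.13 CPM (-0.71, SE 0.49, adjusted p 0.299). The other members fell under the filter on low counts. Lcn2 had 61 counts in the 6 WT OB libraries and 22 in the 6 null OB libraries, at 0.23 to 0.836 and 0.041 to 0.344 CPM. Fitted without the filter, Lcn2 had a log2 fold change of -1.57 in null OB (SE 0.46, edgeR adjusted p 0.0213), and it was the only one of the 8 that passed in that fit. Fpr2 and S100a8 were at or under 0.96 CPM in all OB libraries.

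Most of the listed macrophage markers were lower in null OB cultures. Of 12 macrophage markers 10 fell, 0 rose and 2 did not pass, with a median of -0.69, and their summed level was 17285 to 21367 CPM in WT OB and 9569 to 13186 CPM in null OB. C1qc, a complement chain of macrophages, fell most among them (-0.91, SE 0.09, adjusted p 7.37e-06), and Lyz2 fell from 11127 to 6357 CPM on average (-0.82, SE 0.12, adjusted p 0.000224). The 2 that did not pass were Csf1r, the M-CSF receptor (0.05, SE 0.06, adjusted p 0.52), and Itgam (-0.06, SE 0.08, adjusted p 0.599). The part of macrophages in the OB values of the 8 genes was not tested. Prtn3, a granule protease of neutrophil precursors, was also present in OB, at 3.23 CPM in WT and 2.9 CPM in null.

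The relatives of the 8 genes were mostly low. Of 21 relatives, 7 were tested in BMM, where 3 rose and 2 fell, 7 in OC, where 5 rose and 1 fell, and 10 in OB, where 2 rose and 1 fell. The relatives of Fpr1 and Fpr2 (Fpr3, Fpr-rs3, Fpr-rs4, Fpr-rs6 and Fpr-rs7) had group means of at most 0.0337 CPM, and those of Saa3 (Saa1, Saa2 and Saa4) of at most 0.198 CPM. Msr1, another scavenger receptor, rose from a mean of 436 to 631 CPM in null BMM (0.55, SE 0.14, adjusted p 0.00379) and from 274 to 824 CPM in null OC (1.54, SE 0.08, adjusted p 2.96e-11). Colec12, a scavenger receptor of the collectin family, fell in null BMM (-0.44, SE 0.08) and rose in null OC (0.84, SE 0.09). Scara3 and Scara5 were found mainly in OB, where Scara5 rose (0.43, SE 0.14, adjusted p 0.0349).

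The matrix metalloproteinases related to Mmp8 moved in both directions. Mmp9, the gelatinase B of osteoclasts and neutrophils, rose from 0.0952 to 0.69 CPM in WT BMM to 158 to 229 CPM in null BMM (log2 fold change 9.15, SE 0.20, adjusted p 1.1e-14). Mmp9 then stood the other way round in OC, where it fell from 5891 to 7718 CPM in WT to 202 to 330 CPM in null (-4.70, SE 0.11, adjusted p 2.36e-15). In OB it rose (0.69, SE 0.16, adjusted p 0.00533). Mmp14, a membrane-bound metalloproteinase, rose in BMM (5.76, SE 0.21, adjusted p 8.96e-12) and did not pass in OC (-0.19, SE 0.11, adjusted p 0.14). Mmp12, the macrophage elastase, fell in BMM (-0.69, SE 0.18) and rose in OC (2.49, SE 0.15). Mmp13 and Mmp10 did not pass in BMM and rose in OC, by 2.30 (SE 0.10) and 2.20 (SE 0.26). Mmp3 was found mainly in OB, where it fell (-0.75, SE 0.24, adjusted p 0.0306).

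Other inflammatory response genes were also higher in null macrophage-lineage cultures. Of 20 listed cytokines, chemokines, enzymes and lectins, 17 were tested in BMM, where 14 rose and 3 fell with a median of 2.55, against 0.02 for all genes. In OC 18 were tested, 17 rose and 0 fell, with a median of 3.44, against -0.03 for all genes. In OB 18 were tested, 1 rose and 5 fell, with a median of -0.53, against 0.00. The list was drawn up with results of these data known and describes these genes only.

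Cxcl3, a chemokine for neutrophils, ranged from 0 to 0.271 CPM in WT BMM and from 6.95 to 12.7 CPM in null BMM (6.54, SE 0.34, adjusted p 1.9e-10). Slpi, a secreted protease inhibitor, ranged from 0.968 to 3.1 CPM in WT BMM and from 99.1 to 146 CPM in null BMM (6.37, SE 0.23, adjusted p 1.83e-11). Ptgs2, the inducible cyclooxygenase, ranged from 0.0575 to 0.683 CPM and from 8.97 to 19.4 CPM (5.23, SE 0.32, adjusted p 1.4e-09). None of these 3 overlapped between the genotypes in BMM. Clec4d, a C-type lectin, rose less, from a mean of 342 to 690 CPM (1.03, SE 0.17, adjusted p 0.000193). The genes that fell in null BMM were Ccl3 (-0.43, SE 0.08), Ccl4 (-0.80, SE 0.06) and the inflammasome sensor Nlrp3 (-0.62, SE 0.11), and all 3 rose in null OC, by 2.30, 2.40 and 0.97. In null OB the gene that rose was Il1rn, the interleukin-1 receptor antagonist (1.34, SE 0.15, adjusted p 3.41e-05), and Ccl3 fell furthest (-0.97, SE 0.15, adjusted p 0.000282).

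**Figure D5:**
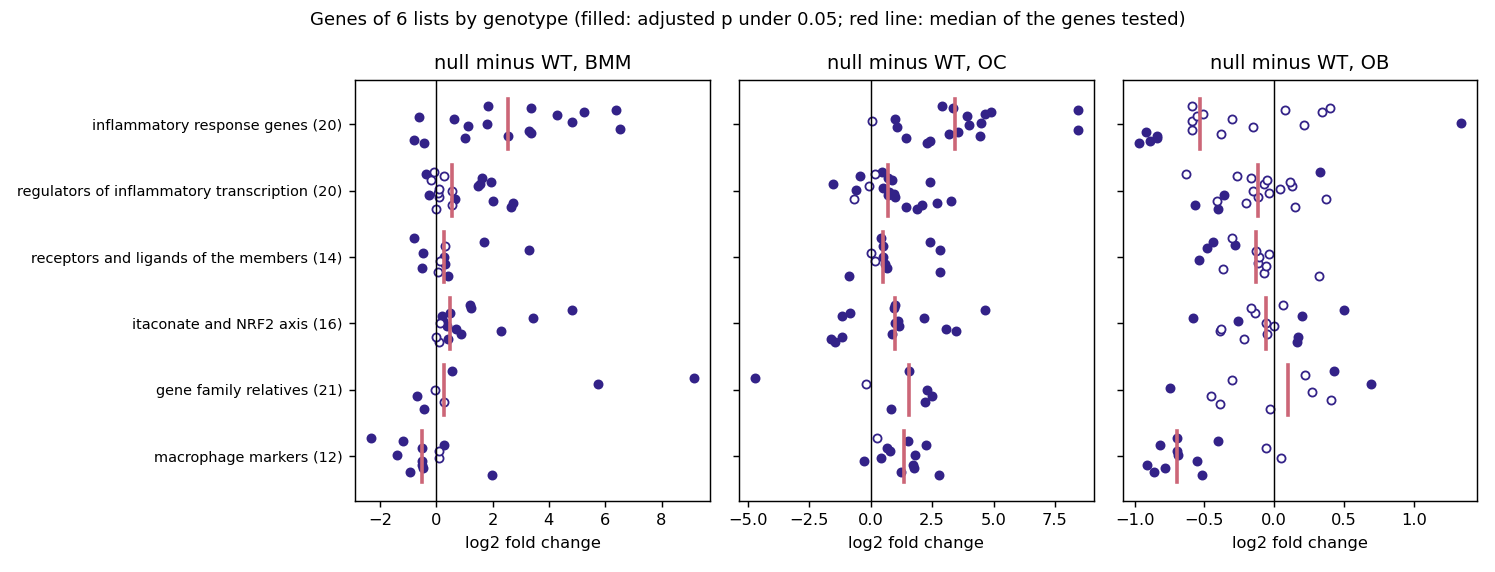
Log2 fold change between null and WT of each tested gene of 6 lists, in BMM, OC and OB, with filled points for an adjusted p under 0.05, a red line at the median of the tested genes and the size of each list in brackets. The horizontal axes differ between the 3 panels. The median of the inflammatory response genes is 2.55 in BMM, 3.44 in OC and -0.53 in OB.

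Regulators of inflammatory transcription had smaller changes in the median than the response genes above. Of 20 listed regulators, 19 were tested in BMM, where 8 rose and 2 fell (median 0.56), and 20 in OC, where 14 rose and 3 fell (median 0.72). All genes had medians of 0.02 and -0.03, and the number of regulators called in BMM was close to the 52.3% of all genes that passed. In OC 65.6% of all genes passed. Cebpb, a C/EBP factor of activated macrophages, rose from a mean of 2.57 to 16.9 CPM in null BMM (2.72, SE 0.24, adjusted p 1.75e-07) and from 2.22 to 14.9 CPM in null OC (2.69, SE 0.16, adjusted p 2.17e-10). Cebpd, another C/EBP factor, rose from 20.2 to 80.2 CPM in BMM (2.00, SE 0.42, adjusted p 0.00138) and from 10.4 to 103 CPM in OC (3.26, SE 0.31, adjusted p 5.19e-07). Spi1, which encodes PU.1, did not pass in BMM (0.27, SE 0.15, adjusted p 0.134) and fell in OC (-0.42, SE 0.09, adjusted p 0.000813). Nfkbia, the inhibitor of NF-kB that NF-kB itself induces, rose in BMM (1.55, SE 0.10) and fell in OC (-1.52, SE 0.07). In OB 1 of 19 rose, Stat3 (0.33, SE 0.10), and 3 fell, of which Cebpa, a C/EBP factor of the myeloid lineage, fell furthest (-0.57, SE 0.14).

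Receptors and ligands of the 8 gene products were tested for 11 of 14 genes in BMM and OC. In BMM 5 rose and 3 fell (median 0.27), and in OC 8 rose and 1 fell (median 0.50), against 52.3% and 65.6% of all genes called and medians of 0.02 and -0.03. Tlr2, a Toll-like receptor for bacterial lipoproteins, rose from 109 to 349 CPM in BMM (1.70, SE 0.09, adjusted p 1.73e-10) and from 54.2 to 302 CPM in OC (2.42, SE 0.10, adjusted p 1.29e-12). Tlr4, a receptor reported for S100a8, fell in BMM (-0.79, SE 0.07, adjusted p 1.59e-07) and rose in OC (0.42, SE 0.10, adjusted p 0.00151). Anxa1, a ligand of the formyl peptide receptors, rose in BMM (0.42, SE 0.09) and fell in OC (-0.88, SE 0.08). Timp1, an inhibitor of metalloproteinases, rose in both, by 3.31 (SE 0.29) and 2.84 (SE 0.39), and fell in OB (-0.48, SE 0.07). Slc22a17, a receptor for Lcn2, had a group mean of at most 0.21 CPM in BMM and OC. In OB 0 of 13 rose and 4 fell, of which Ly96, the co-receptor of Tlr4, fell furthest (-0.54, SE 0.09), where 32.5% of all genes passed.

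The genes around itaconate and the NRF2 response were followed because itaconate is the product of Acod1. In BMM 15 of 16 were tested, 12 rose and 0 fell (median 0.48). In OC 15 were tested, 10 rose and 5 fell (median 0.99). Of all genes 52.3% passed in BMM and 65.6% in OC, with medians of 0.02 and -0.03. Slc7a11, a cystine transporter and NRF2 target, rose from 6.41 to 178 CPM in BMM (4.81, SE 0.17, adjusted p 8.96e-12) and from 7.72 to 201 CPM in OC (4.65, SE 0.12, adjusted p 4.87e-15). Hmox1, heme oxygenase, rose from 481 to 768 CPM in BMM (0.69, SE 0.10) and from 123 to 1073 CPM in OC (3.07, SE 0.12). The enzyme that consumes a product of itaconate breakdown, Clybl, rose in BMM (0.43, SE 0.08) and fell in OC (-1.62, SE 0.08). Succinate dehydrogenase, which itaconate inhibits, rose slightly in BMM, with Sdha at 0.19 (SE 0.06) and Sdhb at 0.48 (SE 0.06), and fell in OC, with Sdha at -1.15 (SE 0.05) and Sdhb at -0.84 (SE 0.07). In OB 4 of 15 rose and 2 fell, with Slc7a11 rising by 0.50 (SE 0.16) and Nqo1 falling by 0.58 on the log2 scale (SE 0.16).

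Genes with the most similar pattern were ranked by the root mean square difference between the centred log2 CPM means of the 6 groups, over 10230 genes with a mean of at least 10 CPM in some group. This is a description over 6 group means and carries no test. Several of the 8 were nearest to each other. Fpr1 and Saa3 were each other's closest gene, at 0.55, and Fpr2 was among the 3 closest of Acod1, Marco, Fpr1 and Saa3. Mmp8 and Fpr1 were the least alike pair of the 8, at 2.97. Cxcl3 was closest to Fpr2 (0.40) and Lcn2 (0.60), and Ppbp, another chemokine, was closest to Acod1 (0.62). Cxcl2 was closest to Mmp8 (0.54), with means of 6 CPM in WT BMM, 58.8 in null BMM, 4.8 in WT OC and 58.5 in null OC. Gpr18, a G-protein-coupled receptor, was closest to S100a8 (0.31). Gsta3, a glutathione transferase, was among the 3 closest of Lcn2 and S100a8, at means of 7.11 and 201 CPM in WT and null BMM. Lancl3 and Rbpms were closest to Marco, at 0.60 and 0.63. Hp, which encodes haptoglobin, was the nearest gene to Fpr1 outside the 8 (1.40).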

How the data were processed

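Each library is a table of transcripts, and the estimated counts and TPM values in it are as the authors deposited them. Transcript lengths and effective lengths stand beside them, per the file headers. The submitters' processing notes name kallisto, DESeq2 and GRCh38, a human build, although the transcript identifiers are mouse Ensembl ones. Versions and the role of each are not given in the sources used here. Identifiers of 97.5% of 88198 transcripts were found in GENCODE M21 (GRCm38), and values were summed to 30205 genes. Transcripts not found held 0.63% to 0.97% of a library's counts and were left out. Deposited lengths differed from GENCODE M21 for the transcripts of Mmp8, Saa3 and S100a8.

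Rounded counts were filtered (filterByExpr), scaled (TMM) and fitted with edgeR 4.0.16 (glmQLFit, robust; R 4.3.3, limma 3.58.1). The threshold was a Benjamini-Hochberg adjusted p of 0.05 over all genes tested. Genotype was fitted on the 12 libraries of a culture, and RANK-L on 24 libraries with 4 group means. The SE was derived from the F statistic. CPM were computed from TMM library sizes, and log2 CPM with a prior count of 2. The steps were tested on simulated data with the same spread for every gene. Genes with few counts were not changed there, so the test does not cover genes near 0 in a group. The 8 genes, the 12 gene lists (150 different genes) and the tests were chosen with earlier results of these data known. Genes were named by a written rule: the 8, their relatives, the 3 most abundant and the most changed genes of each other list, defining markers near 0, and the 3 genes most like each of the 8. Camp, Cd177, Csf1r, Cxcr2, Itgam, Prtn3, Mcemp1, Nlrp3, Slc22a17 and Tlr2 were chosen after their values were seen. Alternatives were RLE scaling, 2 other filters, DESeq2 1.42.0, limma-voom, a replicate block, offsets for transcript length and GC content (lowess span 0.3), a fit of all 36 libraries and leaving out each library. A RANK-L fit on the 12 libraries of 1 genotype was added after seeing the data. Mir324 itself was not analysed here, and some list genes are not reported here by name.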

Additional observations from a re-analysis of the deposited data

Results flagged for a closer look

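Within groups of 6, 4 of 48 combinations of gene and group had 1 library far from the others by Dixon's gap test, where chance gives about 1 in 20. Acod1 was at 2.11 CPM in WT BMM library 6, and Marco was at 21.2 CPM in WT BMM library 4, each the highest of its group. Mmp8 was at 15.1 CPM in WT OC library 1, the highest of its group. Lcn2 was at 0.0881 CPM in WT BMM library 6, which held the only 2 counts of that group. All 4 lie in WT macrophage-lineage groups and far below the lowest null library of the same culture.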

How the results depend on the processing

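Of 645 values of single genes under the alternatives of the tested comparisons, 620 kept their direction and their side of the threshold. They include 33 values each of Fpr2, Saa3, Lcn2 and S100a8 for RANK-L in WT, which are a description with no test. They also include fits for RANK-L in WT that left out a null library, which is not in that contrast. The tally is therefore not read as a result about the 8. In OB 0 of the 8 passed. There was 1 without the filter on low counts (Lcn2), 1 with DESeq2 and 1 with the replicate block (both Saa3), 3 when all 36 libraries were fitted together (Mmp8, Lcn2 and Saa3), and 0 without any 1 library. For RANK-L in WT the 6 calls ranged from 5 to 6 without 1 library. Fpr2 and Saa3 were among them only through the null libraries, so this range is a description. In the 12 WT libraries alone, a fit chosen after seeing the data, 4 were tested and passed. For RANK-L in null the 3 calls became 5 with DESeq2 and ranged from 3 to 5 without 1 library, the highest without null BMM library 5. Lcn2 turned direction for RANK-L in WT, on 2 counts in each group, to 0.03 with limma-voom, 0.00 with a length offset, 1.80 without WT BMM replicate 6 and 0.13 to 0.16 without each of 4 WT OC libraries (0.14, 0.15, 0.13 and 0.16); over all libraries left out it ranged from -0.53 to 1.80. Fpr1 in null turned to 0.00 under a combined length and GC offset. The list genes called, 80 in BMM and 95 in OC, ranged from 79 to 81 and from 95 to 97 without 1 library. The labels do not say whether replicate numbers pair the libraries. Same-numbered libraries correlated between -0.235 and 0.159 in their deviations from the group means, which cannot decide whether any share a mouse. With the replicate block, calls over all genes in OB went from 4420 to 4085, and no call among the 8 changed other than Saa3 in OB. Over all genes, OB calls were 2289 under the combined offset, and RANK-L in null gave 1628 calls, 1037 with limma-voom, 236 in the 12 null libraries alone, and 810, 840, 948 and 1046 without null BMM libraries 3, 2 and 4 and null OC library 3; without 1 library the range was 810 to 2143. The described null against WT differences were varied as differences of mean log2 CPM (prior count 2), not as the edgeR values given above. S100a8 in BMM, for example, was at 5.33 in this form and 5.98 by edgeR. Of 240 such values under alternatives, 13 moved by over 1 SD with another prior count or the deposited TPM, and 0 changed sign. Low depth in WT BMM and WT OC limits Lcn2, S100a8 and Fpr2, where single libraries held 0 to 12 counts. In WT OC it also limits Saa3, at 3 to 6 counts, and Fpr1, at 5 to 12. The cause of the changes named here was not tested.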
